A study of Homo sapiens with 3 samples.

Results

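The genes of EGFR, ERBB and MAPK signaling described here are 35 of the 43317 gene names on the arrays: 4 receptors, 6 ligands, 8 adaptors, Ras proteins and kinases, and 17 genes that MAPK signaling induces, many of which feed back on it. They were chosen by gene name because SPINK1, a secreted trypsin inhibitor, is held to signal through EGFR. 22RV1 is a prostate cancer line positive for SPINK1, and its stable lines 22RV1-shSPINK1-1, 22RV1-shSPINK1-2 and 22RV1-shSPINK1-3 (hairpins 1, 2 and 3 below) each carry another lentiviral hairpin that silences SPINK1. Their RNA was labelled with Cy5, and RNA of 22RV1-shSCRM cells, which carried a scrambled hairpin, with Cy3. Both went onto 1 two-color Agilent array per hairpin, 3 arrays in all. All lines were kept in medium with 1 µg/mL puromycin, and compared under that growth condition alone, with no stimulation by a ligand named in the labels. The replicates are therefore 3 hairpins with 1 array each. Nothing in the labels says how many cultures lay behind them, so a p-value measures only the spread between these arrays, and shSCRM RNA served as the control on each of them, so that the spread between control cultures is in no error below. Cy5 held the silenced cells on every array, and where the dye itself shifted a gene, this cannot be told apart from a change through silencing.

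EGFR (also called ERBB1), ERBB2, ERBB3 and ERBB4 are receptor tyrosine kinases that pair with one another when a ligand binds. Through the adaptor GRB2 and the exchange factor SOS1 they load Ras with GTP, and Ras turns on the chain of RAF, MEK and ERK kinases. ERK then drives transcription of early genes such as EGR1 and FOS, and of inhibitors that damp the pathway: the DUSP phosphatases act on ERK, the Sprouty and SPRED proteins act upstream of it, and ERRFI1 binds the receptors. The level of these feedback genes is widely used as a readout of how active ERK is.

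In the cells of the 3 hairpins, the SPINK1 transcript itself was at 7.43% of its shSCRM level. Its log2 ratio of shSPINK1 over shSCRM was -3.71, -3.65 and -3.89 with hairpins 1, 2 and 3, with a mean of -3.75 ± 0.12 (SD, n = 3) and an adjusted p of 6.05e-07 (limma, Benjamini-Hochberg over all 17061 genes tested). The silencing was thus alike with each hairpin. The precision is limited by the 3 arrays: between 41.3% and 46.8% of gene spots were well above background in Cy5 and between 38.8% and 42.6% in Cy3, and spots of replicated probes differed with a standard deviation of 0.0560 to 0.0593 on the log2 scale within an array. The markers of prostate epithelial cells and of this line, KLK3, KRT8, KRT18, EPCAM, HOXB13, TMPRSS2 and FOLH1, were all measured, with KRT8, EPCAM and TMPRSS2 lower and KRT18 higher at an adjusted p under 0.05 by limma, where 13.5% of all genes passed in either direction. Of 8 markers of leukocytes, endothelium, fibroblasts and liver, CD3E, PECAM1 and COL3A1 were not measured. PTPRC and VWF were well above background in Cy5 on 1 array each and in Cy3 on all 3, and so were kept through Cy3. COL1A1 and DCN were measured, and ALB, which liver makes, was bright, at 10000 to 14900 in Cy5. None of the 5 that were measured passed the test by limma at an adjusted p under 0.05, against 1 at an unadjusted p under 0.05, and their part in the values below was not tested.

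The array holds 49 probes for the 35 genes, each of 60 bases. Genomic positions follow the annotation of the array (hg19), and whether a probe lies in a coding exon or a UTR was not analysed here. The first 30 bases are given for probes of ERBB3 and GRB2, which passed the test, and of EGFR, AREG and NRAS, which came near it. Other measured probes of the same genes are included, because the results below turn on which probe is read. CCND1, which came nearer to the threshold than NRAS, is left out. No base is in capitals.
ERBB3, chr12:56496160-56496219, plus strand, transcript NM_001982: gctcttgactacttggaactaggctcttat
ERBB3, chr12:56479217-56479276, plus strand, transcript NM_001005915: ttttctaatttcaaagtacagtgtaccgga
GRB2, chr17:73314862-73314921, minus strand, transcript NM_002086: ggtacacagtgagagtactcacttttcact
EGFR, chr7:55274841-55274900, plus strand, transcript NM_005228: tatcaaggaagaaatggttcagaaaatatt
AREG, chr4:75320518-75320577, plus strand, transcript NM_001657: tgagtcggtcctctttccagtggatcataa
NRAS, chr1:115249933-115249992, minus strand, transcript NM_002524: atgaatgtctgagatacgtctgtgacttat
NRAS, chr1:115251165-115251224, minus strand, transcript NM_002524: atgaaaaaactcaacagcagtgatgatggg
The 2 ERBB3 probes printed here belong to transcripts that the annotation lists apart, while both NRAS probes are listed under 1 transcript. A further ERBB3 probe, also listed under NM_001982, was not kept. It was well above background on 1 array in Cy5 and 0 in Cy3, and read 0.04, -0.03 and -0.00.

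Of the 35 genes, 27 were measured, and the probe of each passed the background limit in Cy5 and in Cy3 on all 3 arrays. The other 8 were the ligands EGF, EREG and HBEGF, the exchange factor SOS1, the phosphatase DUSP5, the ETS factor ETV5, PHLDA1 and the AP-1 subunit FOSL1. Their 10 probes read 14.6 to 26.2 in Cy5 and 24.8 to 41.8 in Cy3, and none was well above background on all 3 arrays in either channel, so that no difference was detectable. The 27 probes that stood for the measured genes spanned 24.2 to 1586 in Cy5 and 41.6 to 2554 in Cy3. The plot of brightness shows that many of them lay in the dim range, where the offset of 50 that was added to both channels after background correction draws a log2 ratio toward 0.

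**Figure D1:**
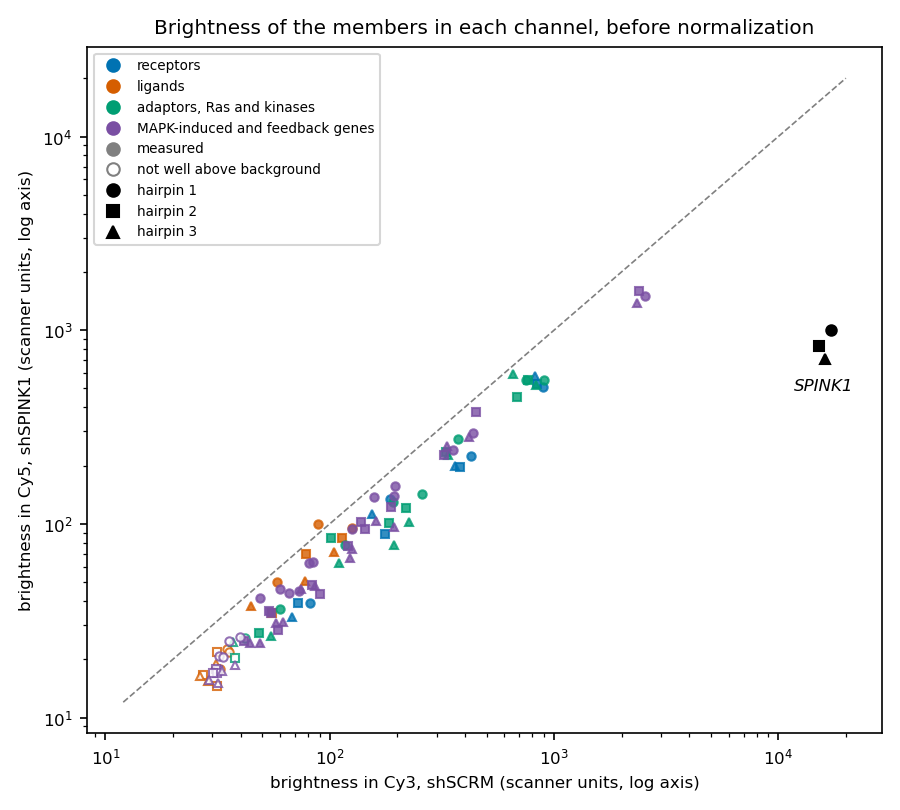
Brightness of the 35 genes (for each, the probe used or, where none was kept, its brightest) in Cy3 (shSCRM, x axis) against Cy5 (shSPINK1, y axis), in scanner units on log axes, before background correction and normalization. Colors give the role, shapes the hairpin, open symbols the 8 genes that were not measured, and the dashed line equal brightness. SPINK1 (black) lies far below the band that all members form, in which Cy3 was the brighter channel for nearly all genes before loess.

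Of the 27 measured genes, 2 were lower in shSPINK1 cells at an adjusted p under 0.05 by limma, the receptor ERBB3 and the adaptor GRB2, and 0 were higher. Among all 17061 genes tested, 8.72% were lower and 4.77% higher by the same criterion, so the share of the members that were lower, 7.41%, was near that of the array as a whole. At an unadjusted p under 0.05 there were 8 members, 5 lower and 3 higher, beside 29.8% of all genes. Neither of the 2 lay beyond 0.5 on the log2 scale, the size limit that the study's methods name. Of all genes, 0.721% passed both the test and that limit, 0.393% of them below -0.5 and 0.328% above 0.5. The median log2 ratio of the members was -0.01 and that of all genes was -0.01. On all 3 arrays 6 members were lower, 5 were higher and 16 did not keep 1 direction, beside 29.1%, 21.2% and 49.7% of all genes. The 95% intervals, which limma gives from the spread of the 3 arrays moderated over all genes, lay within 0.5 of 0 on the log2 scale for 26 of the 27, and AREG was the exception. These intervals are for ratios that hold the offset, which understates a change of a dim gene.

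**Figure D2:**
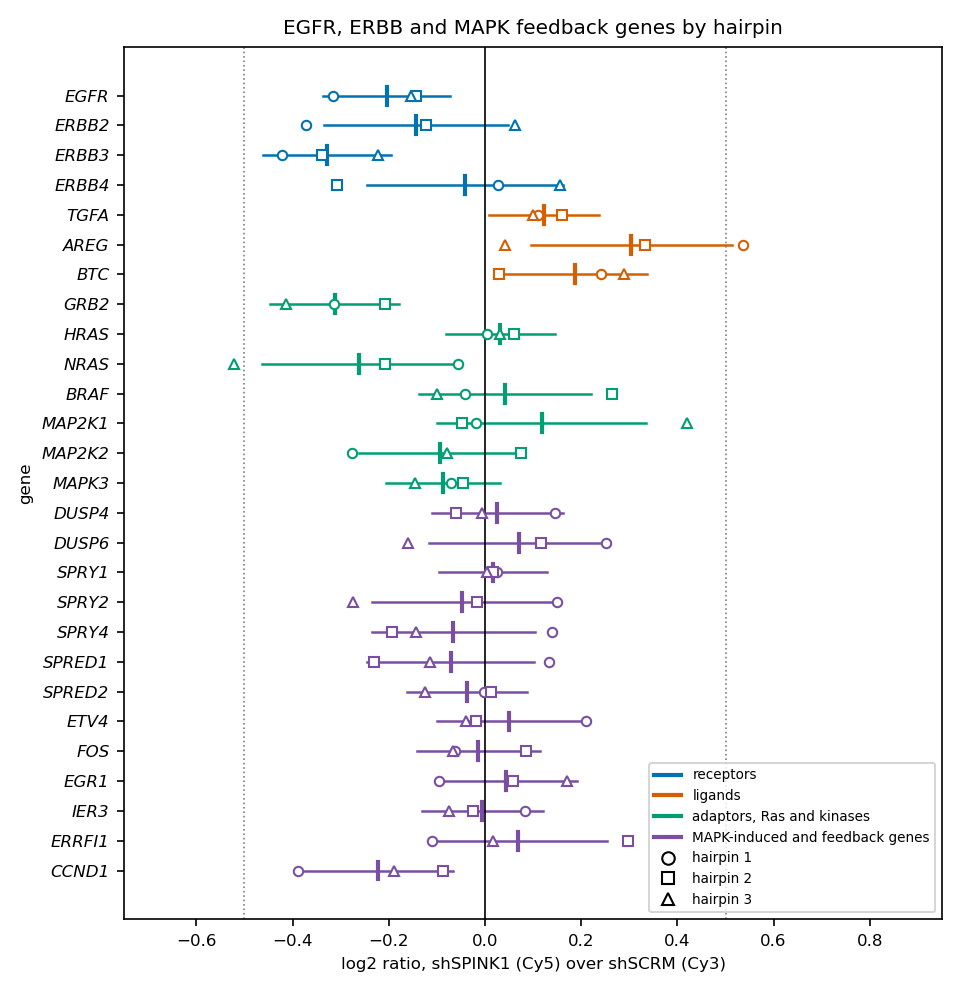
Log2 ratio of shSPINK1 (Cy5) over shSCRM (Cy3), x axis, for the 27 measured genes, y axis, after an offset of 50 and loess. Open symbols are the 3 hairpins, the thick tick is their mean and the line its 95% interval by limma; dotted lines mark 0.5 in either direction. ERBB3 and GRB2 lie to the left of 0 with every hairpin, the 3 ligands to the right, and most feedback genes on both sides.

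All 4 receptors were measured, and their mean log2 ratios ran from -0.33 to -0.04, with 1 of 4 lower by limma. ERBB3, a receptor with little kinase activity of its own that signals by pairing with the others, read 223 in Cy5 and 426 in Cy3 with hairpin 1, 197 and 381 with hairpin 2, and 199 and 363 with hairpin 3. The normalized log2 ratios were -0.42, -0.34 and -0.22 with hairpins 1, 2 and 3. ERBB3 was lower with every hairpin, at 0.797 times the shSCRM level, with a mean log2 ratio of -0.33 ± 0.10 (SD, n = 3), a 95% interval of -0.46 to -0.20 and an adjusted p of 0.0151 by limma. The absolute mean of 4.85% of all genes tested was larger. The dimmer ERBB3 probe, for transcript NM_001005915, did not follow: its log2 ratios were 0.21, -0.19 and -0.03, with a mean of -0.00. With the mean of both probes ERBB3 stood at -0.16 with an adjusted p of 0.0864 by limma, so its call rests on the brighter probe.

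EGFR, the receptor through which SPINK1 is held to act, read 38.9, 39.2 and 33.0 in Cy5 and 81.7, 72.1 and 67.9 in Cy3 with hairpins 1, 2 and 3. Its log2 ratios were -0.32, -0.14 and -0.15, lower with every hairpin. The mean of -0.20 ± 0.10 (SD, n = 3) had a 95% interval of -0.34 to -0.07 and an adjusted p of 0.0540 by limma, just above the threshold. EGFR was dim, and its size depended on the offset: with an offset of 10 the mean was -0.38 with an adjusted p of 0.0368 by limma, and without background correction -0.31 with 0.0397. The log ratio of Agilent's Feature Extraction, which adds no offset, gave -0.82, -0.28 and -0.52 with hairpins 1, 2 and 3, a mean of -0.54 with an adjusted p of 0.128 by limma. The direction was the same under these settings, and the size was not. The probes for EGFR transcripts NM_201283 and NM_201282, which encode shorter forms, were not well above background on any array.

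ERBB2, which binds no known ligand and serves as the partner of the others, had log2 ratios of -0.37, -0.12 and 0.06 and ERBB4 had 0.03, -0.31 and 0.16. Neither kept 1 direction over the hairpins. The 95% interval of the mean was -0.34 to 0.05 for ERBB2 and -0.24 to 0.16 for ERBB4, with adjusted p of 0.287 and 0.797 by limma.

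Among the ligands, TGFA, AREG and BTC were measured, and each was above 0 with every hairpin, though none passed the test. All 3 had an unadjusted p under 0.05 by limma. Of all genes, 21.2% were higher on all 3 arrays, and 29.8% had an unadjusted p under 0.05 in either direction. AREG (amphiregulin), which binds EGFR, read 100, 69.8 and 50.6 in Cy5 and 88.5, 78.2 and 77.8 in Cy3 with hairpins 1, 2 and 3. The log2 ratios of AREG were 0.54, 0.33 and 0.04, so that its value with hairpin 3 was near 0. The mean was 0.30 ± 0.25 (SD, n = 3), with a 95% interval of 0.09 to 0.51 and an adjusted p of 0.0646 by limma. Without hairpin 3 the mean was 0.43 with an adjusted p of 0.0473, and without background correction it was 0.46 with 0.0340, both by limma, so AREG crossed the threshold in each. Without hairpin 1 the mean was 0.19 with an adjusted p of 0.110, and without hairpin 2 it was 0.29 with 0.141, both by limma. The second AREG probe was not kept, being well above background on 2 of 3 arrays in each channel, and read 0.08, -0.05 and -0.03.

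BTC (betacellulin), a ligand of EGFR and ERBB4, had log2 ratios of 0.24, 0.03 and 0.29, with a mean of 0.19 ± 0.14 (SD, n = 3), a 95% interval of 0.04 to 0.34 and an adjusted p of 0.0976 by limma. It was as dim as 34.6 in Cy5, and the Feature Extraction log ratio put it at 0.67, 0.04 and 1.02. TGFA (transforming growth factor alpha), an EGFR ligand, varied least between hairpins, at 0.11, 0.16 and 0.10, with a mean of 0.12 ± 0.03 (SD, n = 3), a 95% interval of 0.01 to 0.24 and an adjusted p of 0.143 by limma. The second TGFA probe was not well above background on any array and read -0.02, 0.03 and -0.08. The direction of TGFA depended on the scaling: when each array was centred on its median in place of loess, the mean was -0.10. That scaling set the median of all genes at -0.23, and TGFA lay above that median, as did AREG at 0.12 and BTC at 0.09.

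Of the adaptors, Ras proteins and kinases, 7 of 8 were measured, with 1 lower. GRB2, which links the activated receptors to SOS1, read 142, 121 and 102 in Cy5 and 257, 219 and 225 in Cy3 with hairpins 1, 2 and 3. The log2 ratios of GRB2 were -0.31, -0.21 and -0.41, lower with every hairpin. The mean was -0.31 ± 0.10 (SD, n = 3), or 0.806 times the shSCRM level, with a 95% interval of -0.45 to -0.18 and an adjusted p of 0.0174 by limma. Without hairpin 3 it was -0.26 with an adjusted p of 0.104 by limma, so the call needs that array. Of all genes, 1.63% were lower without hairpin 3, beside 8.72% with all 3 arrays. GRB2 has 1 probe on the array, and no second reading.

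NRAS, a Ras GTPase, was at -0.06, -0.21 and -0.52, farthest below 0 with hairpin 3, while its dimmer probe stayed near 0 at 0.02, 0.02 and -0.11. The mean of the brighter probe was -0.26 ± 0.24 (SD, n = 3) with an adjusted p of 0.0895 by limma, and without hairpin 1 it was -0.36 with 0.00822. Without hairpin 3 the NRAS mean was -0.13 with an adjusted p of 0.382, and without hairpin 2 it was -0.29 with 0.130, both by limma. The other Ras gene measured, HRAS, varied little, at 0.00, 0.06 and 0.03, with a 95% interval of -0.08 to 0.15. BRAF, the kinase that phosphorylates MEK, was at -0.04, 0.26 and -0.10. MAP2K1 (MEK1) was at -0.02, -0.05 and 0.42, high with hairpin 3 alone, and MAP2K2 (MEK2) at -0.28, 0.07 and -0.08. MAPK3 (ERK1) was at -0.07, -0.05 and -0.15, a small shift in 1 direction with an adjusted p of 0.292 by limma. The means of these 5 genes, HRAS, BRAF, MAP2K1, MAP2K2 and MAPK3, ran from -0.09 to 0.12, and none had an unadjusted p under 0.05.

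The genes that ERK induces, many of which hold it in check, are all called feedback genes here for short. They showed no shift that passed the test. Of 17, 13 were measured, and 0 were lower or higher at an adjusted p under 0.05 by limma, against 1 (CCND1) at an unadjusted p under 0.05. Among all genes, 13.5% passed in either direction at an adjusted p and 29.8% at an unadjusted p under 0.05. The median log2 ratio of the 13 was -0.01. Of them, 11 did not keep 1 direction over the hairpins, or 84.6% beside 49.7% of all genes. The 95% intervals of all 13 lay within 0.5 of 0, on the scale that holds the offset. With median centring in place of loess 7 of the 13 were lower by limma, beside 60.6% of all genes, whose median was itself at -0.23. Since the sample is RNA of a whole culture, fewer cells that express a gene and less RNA per cell cannot be told apart here.

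DUSP6, a phosphatase specific for ERK and a feedback gene often read as its output, read 137, 102 and 66.4 in Cy5 and 157, 138 and 123 in Cy3 with hairpins 1, 2 and 3. Its log2 ratios of 0.25, 0.12 and -0.16 lay on both sides of 0, with a mean of 0.07 ± 0.21 (SD, n = 3), a 95% interval of -0.12 to 0.26 and an adjusted p of 0.606 by limma. DUSP4, a nuclear phosphatase, had 0.15, -0.06 and -0.01. The pattern of a value above 0 with hairpin 1 and below it with hairpin 3 was shared by SPRY2 (Sprouty 2), at 0.15, -0.02 and -0.27. SPRY4 was at 0.14, -0.19 and -0.14, while its dimmer measured probe stayed near 0 at 0.02, -0.04 and 0.02. SPRED1, a relative that recruits the Ras inhibitor NF1, was at 0.13, -0.23 and -0.11. ETV4, an ETS factor induced by ERK, was at 0.21, -0.02 and -0.04. SPRY1, at 0.03, 0.02 and 0.01, and SPRED2, at -0.00, 0.01 and -0.13, were close to 0 with nearly every hairpin.

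Hairpin 1 gave the highest value for 8 of the 13 feedback genes, or 61.5%, beside 35.7% of all genes tested. This count takes the brightest measured probe of each gene. SPRY1 is in it with values close together, at 0.03, 0.02 and 0.01. Its dimmer measured probe read -0.11, 0.04 and 0.01, lowest with hairpin 1. IER3 is in it too, while its dimmer measured probe read -0.01, -0.18 and -0.00, highest with hairpin 3. Over the 13 genes the medians were 0.08, -0.02 and -0.07 for hairpins 1, 2 and 3. The hairpins thus differed among themselves by more than the mean of the 3 differed from 0. With 1 array per hairpin these differences have no replicate, and the hairpin cannot be told apart from its array.

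The early transcription factors were near 0 as well. FOS, a subunit of AP-1, had log2 ratios of -0.06, 0.09 and -0.07. EGR1, a zinc finger factor that ERK induces through SRF and ELK1, had -0.10, 0.06 and 0.17 with a 95% interval of -0.10 to 0.19. IER3, an early response gene, was at 0.08, -0.02 and -0.07, and its second measured probe at -0.01, -0.18 and -0.00. ERRFI1, which binds EGFR and ERBB2 and inhibits them, was at -0.11, 0.30 and 0.02. Only CCND1 (cyclin D1), which drives the step from G1 into S phase, was lower with every hairpin among these 13. It read 1500, 1586 and 1382 in Cy5 and 2554, 2400 and 2336 in Cy3, with log2 ratios of -0.39, -0.09 and -0.19. The mean of CCND1 was -0.22 ± 0.15 (SD, n = 3), with a 95% interval of -0.38 to -0.07 and an adjusted p of 0.0694 by limma. Without hairpin 1 it was -0.14 with an adjusted p of 0.155 by limma.

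**Figure D3:**
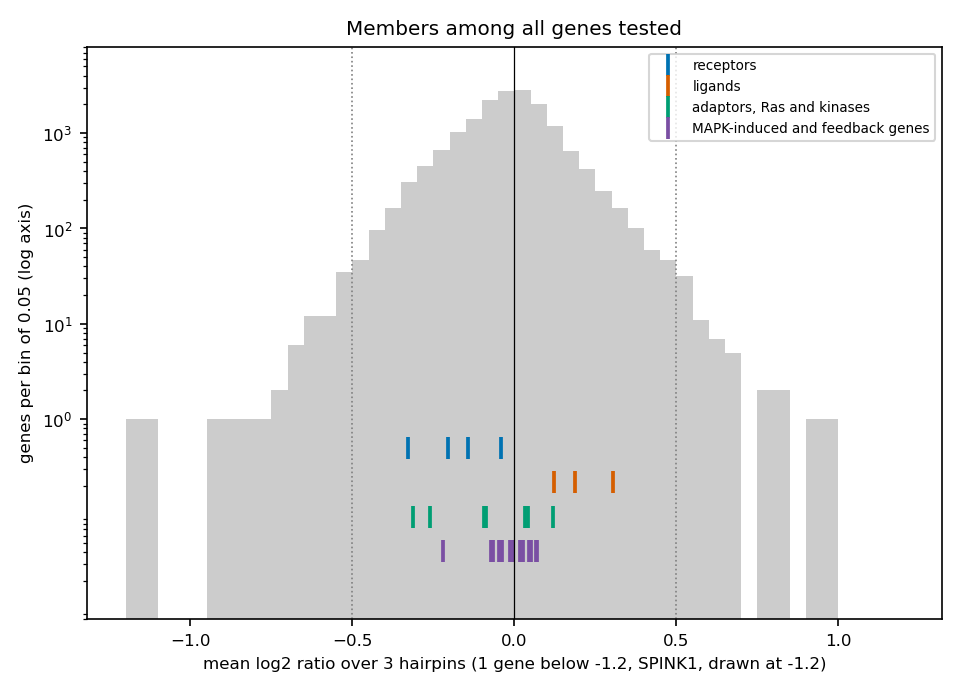
Mean log2 ratio over the 3 hairpins (x axis) of all 17061 genes tested, as the number of genes per bin of 0.05 (gray, log axis), with the 27 measured members as colored ticks in 1 row per role; the height of a row carries no value. SPINK1, at -3.75, is drawn at the left edge, and dotted lines mark 0.5 in either direction. The ticks fill the middle of the distribution, from -0.33 to 0.30.

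The promoters of these genes, 250 bases before to 50 bases after the RefSeq start (GRCh38.p14), were searched on both strands for motifs of factors that act below ERK and cAMP signaling. Sites outside this window were not searched. An entry was found for 27 of the 35 genes, which are not the 27 measured ones. ERBB3, DUSP4, DUSP5, ETV4, ETV5, FOSL1, IER3 and CCND1 had none. The CArG box, which SRF binds, was in 1 of 27, beside 1.29% of all 35116 promoters, and the ETS motif CCGGAAGT in 2 (ERBB2 and NRAS) beside 4.14%. The CRE TGACGTCA was in 1 (AREG) beside 1.85%. The motifs found do not overlap one another. Stretches of the EGR1 and AREG promoters are given to show these letters, in capitals.
EGR1, chr5:138465359-138465420, plus strand, 2 CArG boxes that begin 105 and 83 bases before the start: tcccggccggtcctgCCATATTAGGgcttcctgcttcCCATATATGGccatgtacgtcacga
AREG, chr4:74445056-74445093, plus strand, 1 CRE that begins 65 bases before the start: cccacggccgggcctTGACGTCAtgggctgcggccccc
EGR1, with 2 boxes for SRF, had a log2 ratio of 0.04, and AREG, with the CRE, 0.30. A match of letters is a description and not a measured binding site.

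Around the members, 22 other genes of the pathway were read in the same way, of which 18 were measured. Of these, 6 were lower by limma at an adjusted p under 0.05, or 33.3% beside 8.72% of all genes, and 0 were higher. At an unadjusted p under 0.05 there were 10, 9 lower and 1 higher, beside 29.8% of all genes. On all 3 arrays 10 of the 18 were lower, or 55.6% beside 29.1% of all genes. This list was written with earlier results of these data known, so its shares describe these genes and do not test the pathway. Among the 6, those with the largest absolute means at an offset of 50 were the RAF kinase ARAF, with -0.20, -0.35 and -0.27 over the hairpins, the ubiquitin ligase CBLB, which marks active EGFR for breakdown, with -0.38, -0.19 and -0.18, and SRF, with -0.32, -0.21 and -0.19. NF1, the GTPase-activating protein that turns Ras off, was at -0.21, -0.25 and -0.23 and SOS2, the relative of SOS1, at -0.23, -0.24 and -0.16. The sixth, RPS6KA1, a kinase that ERK activates, was at -0.20, -0.17 and -0.22 and is named after its values were seen. The 6 thus hold genes that pass the signal on and genes that damp it, and their means ran from -0.27 to -0.20. SRF, which read 23.7 to 30.9 in Cy5, depended most on the offset among the 6, with a mean of -0.24 at an offset of 50, -0.55 at an offset of 10 and -1.01 by the Feature Extraction log ratio. Their adjusted p by limma ran from 0.0201 for ARAF to 0.0401 for RPS6KA1. Without hairpin 2, or without hairpin 3, 0 of the 18 were lower by limma, with 8 and 6 at an unadjusted p under 0.05. Without hairpin 1 there were 5 lower, all of the 6 but CBLB. The share of all genes called lower moved as well, to 11.6%, 3.61% and 1.63% without hairpins 1, 2 and 3.

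Of 24 further genes that MAPK signaling induces, 17 were measured, with 2 lower and 0 higher by limma, and 4 at an unadjusted p under 0.05, all lower. The share called lower was 11.8%, near the 8.72% of all genes, of which 29.8% had an unadjusted p under 0.05 in either direction. MCL1, which keeps cells from apoptosis, was at -0.64, -0.40 and -0.48, with a mean of -0.51 ± 0.12 (SD, n = 3) and an adjusted p of 0.00680 by limma. KLF10, a zinc finger factor, was at -0.20, -0.21 and -0.40, with a mean of -0.27 ± 0.11 (SD, n = 3) and an adjusted p of 0.0271 by limma. The KLF10 call was lost without hairpin 2 and without hairpin 3, with adjusted p of 0.0516 and 0.156 by limma. In those fits 3.61% and 1.63% of all genes were lower, beside 8.72% with all 3 arrays. The median of the 17 was -0.02, near that of the 13 feedback genes at -0.01.

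How far each member depended on the processing is shown gene by gene. The 3 ligands and EGFR lay farther from 0 with the smaller offset and with the Feature Extraction log ratio than with an offset of 50. So did other members, among them MAPK3, SPRY4, ETV4 and SPRED1. Their means were -0.09, -0.07, 0.05 and -0.07 at an offset of 50. By the Feature Extraction log ratio they were -0.30, -0.34, 0.22 and -0.17. With the Feature Extraction log ratio, 0 members passed the test by limma, with 6 at an unadjusted p under 0.05, and 3 of all 17061 genes did, so that few genes of any kind could pass there. Median centring lowered the means of the members together with those of the array as a whole, whose median then stood at -0.23 beside -0.24 for the members.

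**Figure D4:**
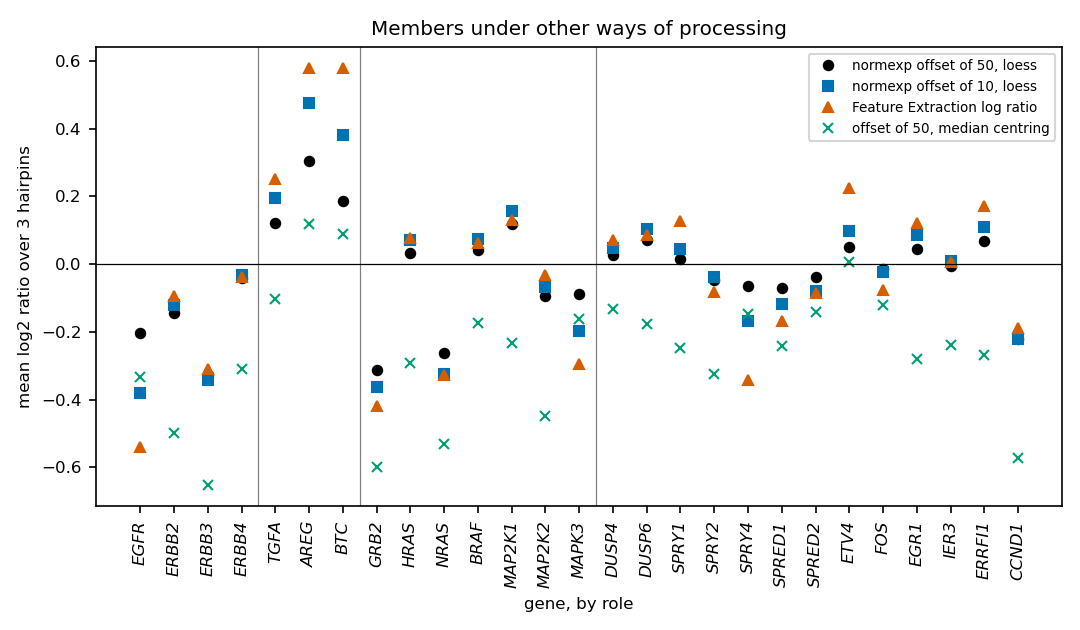
Mean log2 ratio over the 3 hairpins (y axis) of the 27 measured genes (x axis, by role, parted by vertical lines) under 4 ways of processing. AREG and BTC reach 0.58 and EGFR -0.54 with the Feature Extraction log ratio, and median centring puts most genes below the other settings.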

How the data were processed

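The 3 two-color Agilent arrays of 22RV1 cells were analysed, with shSPINK1 in Cy5 and shSCRM in Cy3 per the labels. For each array the authors deposited scanner output that gives spot and background intensity per channel without normalization, a log10 ratio that Feature Extraction 11.5.1.1 had corrected for background and dye, and other columns that flag spots. A table of log2 values was deposited as well, and 92.6% to 93.0% of its entries matched the processed signals' log2 ratio to within 0.02. The study's methods state Lowess normalization. Per the labels, poly(A) tails were added to total RNA before labelling.

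In R 4.3.3 with limma 3.58.1, intensities were corrected by normexp with an offset of 50, control spots and outlier spots were left out, each array was normalized by loess, and repeated spots were averaged by probe. Probes were kept when well above background on all 3 arrays in Cy5 or in Cy3, and the brightest kept probe stood for a gene. The mean log2 ratio was tested against 0 with eBayes and Benjamini-Hochberg adjustment over 17061 genes. No spot was saturated, and no arrays held the same values, since at most 0.0345% of gene spots were identical between arrays. The step was tested on simulated data. All arrays lay on 1 slide and were scanned together, so no batch could be tested.

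The members and gene lists were chosen with earlier results of these data known. All 35 members are accounted for by name. Of the other lists, genes called beyond 0.5, or else the 5 largest called, are named. A marker gene is not reported here. Alternatives covered the source of values, the background correction, the offset, the normalization, the filter, the probe rule and each array left out. Promoters and their sequences are those of RefSeq (GRCh38.p14).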

Additional observations from a re-analysis of the deposited data

How the results depend on the processing

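No paired analysis was possible because the control was the other channel of each array and the arrays form 1 group. The slide and scan could not be fitted as a block, since all arrays shared them. The cause of the changes below was not tested.

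The 2 members called lower by limma became 0 with the Feature Extraction log ratio and 0 with the deposited table (6 and 5 members had an unadjusted p under 0.05), 17 with median centring, 1 with the mean of a gene's kept probes, 3 without background correction, 3 with an offset of 10 (EGFR was added in both), and between 1 and 3 with 1 array left out, 1 without hairpin 3 and 3 without hairpin 1, where NRAS was added. The 0 members called higher became 1 (AREG) without background correction and between 0 and 1 with 1 array left out. Of all genes, 8.72% were lower with all arrays, and 11.6%, 3.61% and 1.63% without hairpins 1, 2 and 3. That share was 60.6% with median centring and 7.67% with the mean of kept probes. It was 6.03% without background correction, 5.24% with an offset of 10, and 0.0176% with Feature Extraction and with the table. The share called higher was 4.77% with all arrays and 4.92% without background correction. Without hairpins 1, 2 and 3 it was 7.46%, 2.54% and 0.991%. With median centring, 4 members were lower beyond 0.5, as were 1965 of all 17061 genes. In that setting 7 feedback genes were lower where there had been 0. The median of the members was then -0.24, beside -0.23 for all genes, of which 10339 were lower and 91 higher. Of the other pathway genes, 6 were lower; the count was 0 with Feature Extraction and 0 with the deposited table (7 and 8 at an unadjusted p under 0.05), 16 with median centring, 4 without background correction (SOS2 and RPS6KA1 were lost), 4 with an offset of 10 (CBLB, SOS2 and RPS6KA1 were lost and another gene added), 5 with the mean of a gene's kept probes (RPS6KA1 was lost), and between 0 and 5 with 1 array left out. Of the other MAPK-induced genes, 2 were lower; the count was 0 with Feature Extraction and 0 with the table (4 at an unadjusted p under 0.05 in both), 11 with median centring, and between 1 and 2 with 1 array left out.

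Means near 0 turned their sign under some settings. With median centring these were TGFA (-0.10), HRAS (-0.29), BRAF (-0.17), MAP2K1 (-0.23), DUSP4 (-0.13), DUSP6 (-0.18), SPRY1 (-0.25), EGR1 (-0.28) and ERRFI1 (-0.27). With 1 array left out, the means ran from -0.14 to 0.092 for ERBB4, -0.070 to 0.11 for BRAF, -0.033 to 0.20 for MAP2K1, -0.034 to 0.070 for DUSP4, -0.021 to 0.18 for DUSP6, -0.15 to 0.066 for SPRY2, -0.17 to 0.0093 for SPRED1, -0.063 to 0.0057 for SPRED2, -0.029 to 0.095 for ETV4, -0.064 to 0.012 for FOS, -0.019 to 0.11 for EGR1, -0.050 to 0.029 for IER3 and -0.046 to 0.16 for ERRFI1. IER3 also turned with Feature Extraction (0.0055), without background correction (0.039) and with an offset of 10 (0.010), and SPRY1 with the mean of its probes (-0.0015). Over the values of single genes under all alternatives, 274 kept their direction and side of the threshold, 43 were no longer past it, 15 newly passed it and 28 turned their sign. ERBB3 lost its call with Feature Extraction (-0.31), the table (-0.13) and the mean of its probes (-0.16), and GRB2 with Feature Extraction (-0.42), the table (-0.42) and without hairpin 3 (-0.26). Brightness near background limits the ligands, EGFR, MAPK3 and several feedback genes.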

Other observations

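Among the other MAPK-induced genes, ATF3 and JUN, chosen after their values were seen, had higher log2 ratios with hairpin 2 than with the others. ATF3, a transcription factor induced by cell stress, had log2 ratios of -0.27, 0.78 and -0.14 with hairpins 1, 2 and 3, and its 3 dimmer probes read 0.18, 0.19 and 0.25 with hairpin 2, above their values with hairpins 1 and 3. JUN, a subunit of AP-1, was at -0.15, 0.57 and -0.19. The mean of neither differed from 0 by limma with Benjamini-Hochberg adjustment, at adjusted p of 0.702 for ATF3 and 0.758 for JUN. FOS, the partner of JUN among the members, was at 0.09 with hairpin 2. With 1 array per hairpin, the difference between hairpins was not tested.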
